A study of Homo sapiens with 6 samples.

Results

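The EGR transcription factors and their NAB corepressors were followed in SH-SY5Y, a human neuroblastoma cell line, with and without the organochlorine insecticide endosulfan. Every probe set was taken whose annotation names exactly 1 gene, that gene being EGR1, EGR2, EGR3, EGR4, NAB1 or NAB2. This gave 20 probe sets of 49293: 6 for EGR1, 4 for EGR3, 2 for EGR4, 7 for NAB1 and 1 for NAB2. EGR2 had no probe set of this kind and is not analysed here. The endosulfan group held 3 arrays of cells given 3 µM for 24 h, which per the labels is under the LC50, and the control group 3 arrays of cells whose agent is given as control, with no vehicle named. Both groups were grown in the same MEM and F12 medium with serum. The labels call the arrays biological replicates and name no culture, passage or day, so the spread given here is that between these samples and may be technical. The values are deposited log2 RMA values, in which 1 unit is a doubling of signal.

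The family was chosen with the endosulfan comparison already known, because EGR1 led it. The differences between the groups are therefore a description of the 20 probe sets, with no test of them. The standard errors (SE) and 95% intervals from the limma fit only describe spread between arrays. In that fit each probe set's variance is drawn toward a value common to all 49293 probe sets. The SE is thus larger than a probe set's own arrays give where these spread little, and smaller where they spread widely.

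EGR1, EGR3 and EGR4 belong to a small family of zinc finger factors that bind GC-rich sites. They are immediate early genes: growth factor, calcium and stress signals switch them on within minutes through MAP kinases, which act on serum response factor and its ETS partners at CArG boxes, and through CREB at cyclic AMP response elements. NAB1 and NAB2 bind the inhibitory domain of EGR1 and of some of its relatives, and they repress its target genes in part through the NuRD chromatin remodelling complex. NAB2 is itself induced by EGR1 in many cells, so that the pair forms a feedback loop. In neurons EGR1 is known for its response to synaptic activity and growth factors.

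The promoters of 3 measured genes are shown because they differ in the sites that such signals use. Each sequence is the 250 bases before the RefSeq transcript start in GRCh38.p14, 5′ to 3′ on the gene's strand, with motif matches in capitals. EGR1 lies at chr5:138465229-138465478 on the plus strand, EGR4 at chr2:73293549-73293798 on the minus strand and NAB2 at chr12:57088864-57089113 on the plus strand.
EGR1: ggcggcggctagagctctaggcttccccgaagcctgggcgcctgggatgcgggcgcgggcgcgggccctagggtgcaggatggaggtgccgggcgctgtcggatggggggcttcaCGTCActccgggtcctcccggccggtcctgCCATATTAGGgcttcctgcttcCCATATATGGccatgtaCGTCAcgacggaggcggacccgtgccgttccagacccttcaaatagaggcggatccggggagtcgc
EGR4: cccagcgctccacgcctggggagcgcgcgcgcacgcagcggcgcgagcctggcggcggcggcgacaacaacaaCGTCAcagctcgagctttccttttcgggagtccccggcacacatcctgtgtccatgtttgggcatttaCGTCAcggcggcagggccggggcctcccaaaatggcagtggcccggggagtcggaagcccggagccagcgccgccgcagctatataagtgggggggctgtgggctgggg
NAB2: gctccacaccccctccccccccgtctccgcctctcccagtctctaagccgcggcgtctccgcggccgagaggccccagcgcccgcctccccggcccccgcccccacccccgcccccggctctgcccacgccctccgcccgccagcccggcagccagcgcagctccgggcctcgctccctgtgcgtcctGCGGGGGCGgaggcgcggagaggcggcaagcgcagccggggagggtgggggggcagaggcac
The capitals mark CArG boxes, which are bound by serum response factor, the cyclic AMP response half-site TGACG, and GCGGGGGCG, which is one form of the EGR site. A half-site read from the other strand shows as CGTCA.

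The EGR1 window held 2 CArG boxes, at -105 to -96 and -83 to -74 from the start, and 2 TGACG half-sites, at -135 to -131 and -66 to -62. The EGR4 window held 2 half-sites, at -177 to -173 and -109 to -105, and no CArG box. The NAB2 window held neither, and had 1 GCGGGGGCG match at -62 to -54. NAB1 has 3 RefSeq starts. The windows of its first and second start overlap and share 2 GCGGGGGCG matches, which overlap each other, 1 GCGTGGGCG match, the other EGR form searched, and 1 half-site. The window of the third start held 1 half-site. All motifs were searched on both strands of the window from 250 bases before to 50 bases after the start. The full site TGACGTCA was searched too and was in none of these windows. Over all 35116 promoter windows of that length, 1.29% held a CArG box, 24.6% a TGACG half-site, 1.85% TGACGTCA, 0.795% GCGTGGGCG and 5.07% GCGGGGGCG. The half-site was added to the search after the sequences had been seen. A match shows only that the letters are there. EGR3 had no entry in the promoter table.

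**Figure D1:**
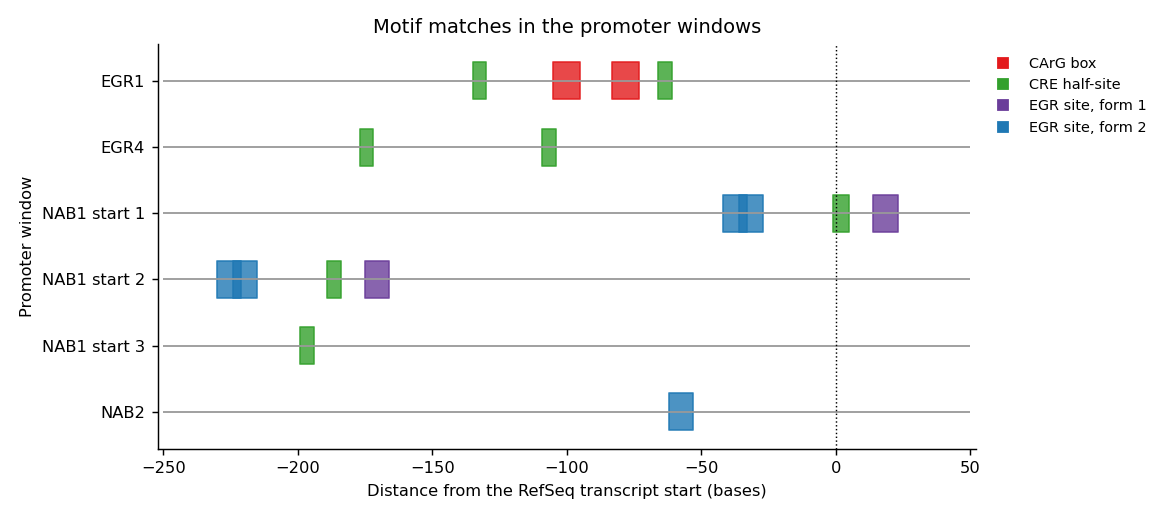
Motif matches in the promoter windows of EGR1, EGR4, NAB1 (3 starts) and NAB2, by distance in bases from the RefSeq transcript start, which is the dotted line. CArG boxes are seen in the EGR1 window alone among these 6, cyclic AMP response (CRE) half-sites in EGR1, EGR4 and NAB1, and EGR sites (form 1 is GCGTGGGCG, form 2 is GCGGGGGCG) in NAB1 and NAB2.

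The arrays had medians of 4.89 to 4.94, and their number limits the precision. The poly-A transcripts spiked in before labelling averaged 6.57 ± 1.02 (SD, n = 3, log2) on control and 8.11 ± 0.60 (SD, n = 3) on endosulfan arrays. The exact permutation p was 0.2, where 0.1 is the smallest that 3 arrays against 3 can give. The part of this in the results below was not tested; control 2 had 7.73, endosulfan 1 had 7.81 and endosulfan 2 had 7.73, and differences among these 3 arrays with level spike-ins are given beside the members. Of 12 neuroblast markers 10 were measured, and the mean of their log2 values was 10.64 to 10.72 on control and 10.43 to 10.46 on endosulfan arrays, with 3 lower and 0 higher at an unadjusted limma p below 0.05, or 30.0% and 0.0% against 10.5% and 6.64% of all 18132 genes. The 19 measured markers of Schwann, mesenchymal, epithelial, blood and endothelial cells had list medians between -0.0031 and 0.10 (log2 difference), with 1 higher and 2 lower at that level, or 5.26% and 10.5% against the same 6.64% and 10.5%, and the part of either marker list was not tested. In such bulk RNA, fewer cells with a transcript and less transcript per cell cannot be told apart.

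EGR1 signal was about 3 times higher on the endosulfan arrays by 3 of its 6 probe sets, 1.43 times higher by 11717862_x_at, and nearly level by the rest. EGR3 was higher on 1 of its 4 probe sets and nearly level on its brightest. EGR4 was higher by a smaller amount on 1 of 2, and the corepressor NAB2 was 1.43 times higher on its only probe set. The corepressor NAB1 showed no common direction over its 7 probe sets. Of the 20 probe sets, 16 had a positive difference, endosulfan minus control, against 60.1% of all probe sets, and the median difference was 0.16 against 0.05 (log2). Of these 16, 6 were EGR1's, and 10 came from the 14 probe sets of the other genes. The count turned on small differences: it was 12 of 20 without control 1, against 55.8% of all probe sets there, 13 without endosulfan 1 and 13 with the spike-in level in the model, and 8 of the 20 changed sign under at least 1 alternative.

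On 7 of the 20 all endosulfan arrays exceeded all control arrays, which held for 11.5% of all 49293 probe sets, and on 0 all endosulfan arrays were below all control arrays, which held for 9.24%. In the limma fit over all probe sets, 3 members, all of EGR1, were higher at a Benjamini-Hochberg adjusted p below 0.05, as were 0.00811% of all probe sets, 4 in number, and these calls are what chose the family. They were the probe sets at rank 1, 2 and 4 by p and at rank 9, 18 and 43 by size of difference. Without control 2 the calls of 11717860_a_at and 11754334_s_at remained and that of 11752940_a_at did not, and without any other single array the count was 0. The differences of these 3 probe sets themselves stayed between 1.40 and 1.80 (log2) whichever array was left out. The count of calls was also 0 with the spike-in level in the model. It was 7 with array weights, which lean on control 3 and endosulfan 3. With those weights 3003 probe sets were higher and 4098 lower at that level among all 49293.

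**Figure D2:**
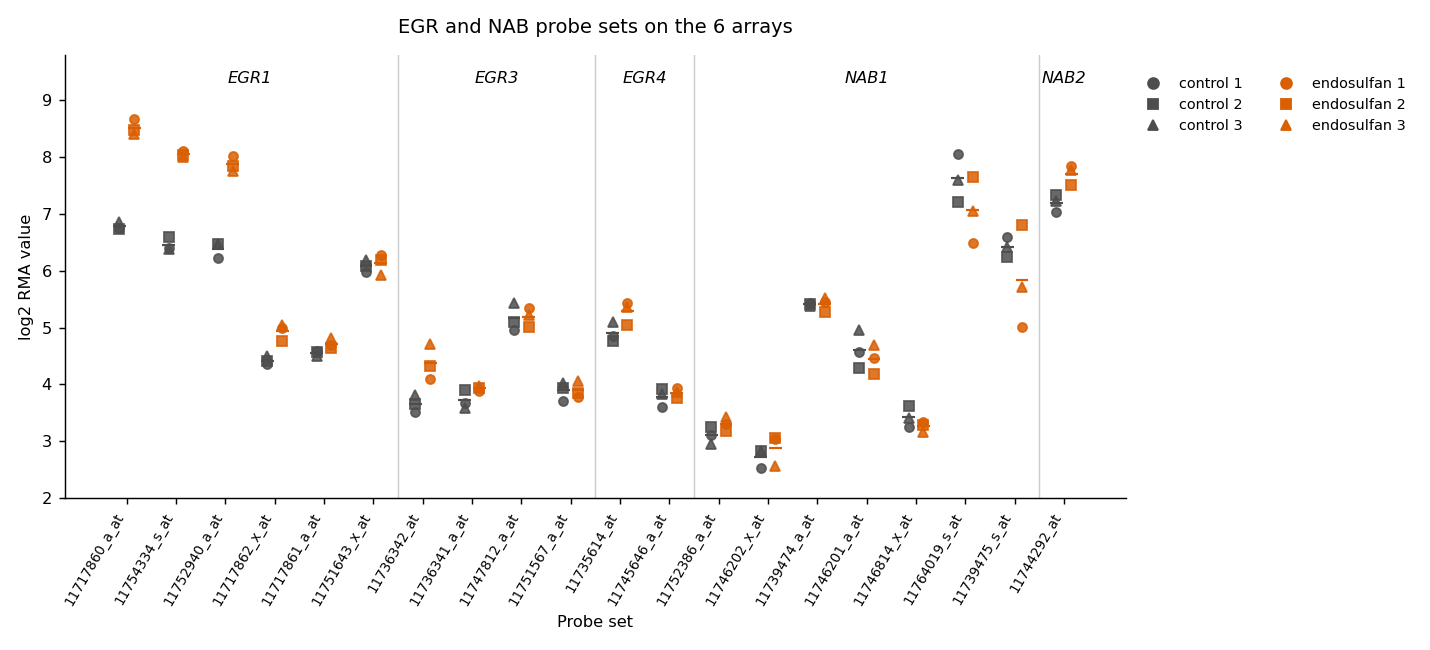
Log2 RMA value (vertical axis) of each of the 20 EGR and NAB probe sets on the 6 arrays, control in grey and endosulfan in orange, with the replicate given by the symbol and the group mean by a short line. The first 3 EGR1 probe sets stand near 6.4 to 6.8 in control and 7.9 to 8.5 in endosulfan means, while the groups overlap in all NAB1 probe sets.

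EGR1, the family's best known activator, had its brightest signal and its largest difference on probe set 11717860_a_at. It read 6.75, 6.73 and 6.86 on control arrays 1 to 3 and 8.67, 8.48 and 8.40 on endosulfan arrays 1 to 3. The control arrays had an SD of 0.07, the endosulfan arrays stood far above them, and endosulfan 1 was the highest. The difference was 1.74 ± 0.11 (SE, log2, 95% interval 1.48 to 2.0), or 3.33-fold.

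Probe set 11754334_s_at read 6.40, 6.60 and 6.38 on control and 8.11, 8.04 and 8.0 on endosulfan arrays, a difference of 1.59 ± 0.11 (SE, log2), or 3.00-fold. Probe set 11752940_a_at read 6.23, 6.47 and 6.47 on control and 8.02, 7.85 and 7.75 on endosulfan arrays, a difference of 1.48 ± 0.12 (SE, log2), or 2.80-fold. In all 3 of these probe sets endosulfan 1 was the highest array and endosulfan 3 the lowest of the exposed ones. Among the 3 arrays with level spike-ins, where control 2 is the only control array, their differences were 1.85, 1.47 and 1.47 (log2).

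The other 3 EGR1 probe sets showed less. The pair 11717862_x_at and 11717861_a_at was designed from 1 sequence record, yet the first differed by 0.52 ± 0.11 (SE, log2, 1.43-fold) and the second by 0.16 ± 0.10 (SE, log2). The first read 4.36, 4.41 and 4.49 on control and 4.99, 4.77 and 5.05 on endosulfan arrays. The second read 4.59, 4.58 and 4.50 on control and 4.69, 4.64 and 4.82 on endosulfan arrays. Both kept the groups apart, the second by a gap smaller than the spread of its endosulfan arrays, and on both endosulfan 3 was the highest and endosulfan 2 the lowest of the exposed arrays. Probe set 11751643_x_at read 5.98, 6.09 and 6.19 on control and 6.28, 6.19 and 5.92 on endosulfan arrays, a difference of 0.05 ± 0.13 (SE, log2, 95% interval -0.25 to 0.34). Its groups overlapped, and endosulfan 3 was the lowest of the 6 arrays.

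The range over EGR1's probe sets, from 0.05 to 1.74, was thus wider than the range over all probe sets of EGR3, EGR4 and NAB2 together. The place of each probe set on the transcript was not analysed here. By the array maker's naming, the suffix x marks probes that may also match other sequences, and the suffix s probes shared by several transcripts.

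**Figure D3:**
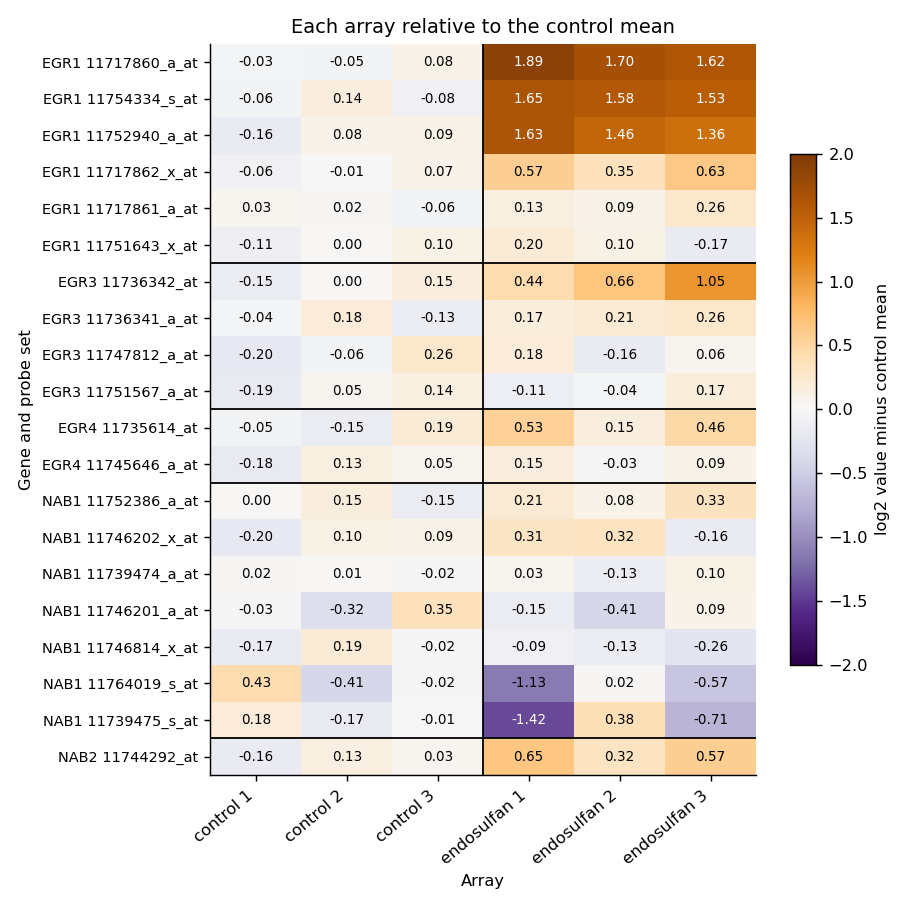
Log2 value of each probe set (rows, grouped by gene) on each array (columns) minus that probe set's control mean, with the value printed in each cell and the colour scale centred on 0. The 3 leading EGR1 probe sets are between 1.36 and 1.89 on every endosulfan array, and the last 2 NAB1 rows are negative on endosulfan 1 and 3 and positive on endosulfan 2.

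EGR3, a relative of EGR1 that is induced by the same signals and known from muscle spindle, nerve and lymphocyte development, was higher on 1 probe set. That probe set had the lowest control mean of the 4, at 3.66, and EGR3's brightest, 11747812_a_at, was nearly level. Probe set 11736342_at read 3.51, 3.66 and 3.81 on control and 4.10, 4.32 and 4.71 on endosulfan arrays. The groups did not overlap, and endosulfan 3 was the highest, whereas it was the lowest exposed array in the leading EGR1 probe sets. The difference was 0.72 ± 0.17 (SE, log2, 95% interval 0.33 to 1.10), or 1.64-fold, and 0.55 among the arrays with level spike-ins.

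Of the other EGR3 probe sets, 11736341_a_at read 3.67, 3.90 and 3.59 on control and 3.89, 3.93 and 3.98 on endosulfan arrays. Control 2 lay just above endosulfan 1, and the difference of 0.21 ± 0.11 (SE, log2) was 0.01 among the arrays with level spike-ins. Probe sets 11747812_a_at and 11751567_a_at differed by 0.03 ± 0.15 and 0.01 ± 0.13 (SE, log2), with 95% intervals of -0.32 to 0.38 and -0.29 to 0.30. The first, EGR3's brightest, read 4.97, 5.10 and 5.42 on control and 5.34, 5.01 and 5.23 on endosulfan arrays. The groups of both overlapped, and on the second endosulfan 3 was the highest and control 1 the lowest of the 6 arrays. The 95% interval of 11736342_at, 0.33 to 1.10, overlapped that of 11747812_a_at at its edge and lay above that of 11751567_a_at.

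EGR4, a neuronal member that lacks the NAB-binding domain in its usual description, had 2 probe sets. Probe set 11735614_at read 4.86, 4.76 and 5.10 on control and 5.44, 5.05 and 5.36 on endosulfan arrays, where endosulfan 2 lay below control 3. The difference was 0.38 ± 0.14 (SE, log2, 95% interval 0.05 to 0.71), or 1.30-fold. Probe set 11745646_a_at read 3.60, 3.91 and 3.83 on control and 3.93, 3.75 and 3.87 on endosulfan arrays, and its difference of 0.07 ± 0.12 (SE, log2) changed sign among the arrays with level spike-ins, at -0.07.

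NAB2, the corepressor that EGR1 is known to induce, was measured by 11744292_at alone. It read 7.04, 7.33 and 7.23 on control and 7.84, 7.52 and 7.77 on endosulfan arrays. Every endosulfan array was above every control array, with endosulfan 2 the nearest to them. The difference was 0.51 ± 0.13 (SE, log2, 95% interval 0.21 to 0.82), or 1.43-fold, and it was 0.35 among the arrays with level spike-ins.

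NAB1, the second corepressor, which is made in most cells without induction, had 3 probe sets with a positive and 4 with a negative difference, and the groups of all 7 overlapped. The largest were negative and came from 2 probe sets that went together over the arrays. Probe set 11764019_s_at read 8.05, 7.21 and 7.60 on control and 6.49, 7.65 and 7.06 on endosulfan arrays. Probe set 11739475_s_at read 6.60, 6.25 and 6.41 on control and 5.01, 6.80 and 5.71 on endosulfan arrays. On both, control 1 and endosulfan 2 were the highest arrays and endosulfan 1 the lowest. Their differences were -0.56 ± 0.31 and -0.58 ± 0.39 (SE, log2), so that endosulfan arrays differed from each other by more than the groups did. Without endosulfan 2 they were -0.85 and -1.06, and without endosulfan 1 -0.27 and -0.17.

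The remaining NAB1 probe sets had differences close to 0. Probe set 11739474_a_at was the steadiest, at 5.43, 5.42 and 5.39 on control and 5.45, 5.28 and 5.51 on endosulfan arrays, with a difference of 0.00 ± 0.10 (SE, log2, 95% interval -0.24 to 0.25). The values of 11752386_a_at and 11746202_x_at were higher by 0.21 ± 0.12 and 0.16 ± 0.16, and those of 11746201_a_at and 11746814_x_at had differences of -0.16 ± 0.19 and -0.16 ± 0.12 (SE, log2). The means of 11746202_x_at, 2.73 for control and 2.89 for endosulfan, were below the median background control probe set of each array, at 3.01 to 3.22, and those controls have a base composition that may not match. A call of signal above background could not be made for any probe set.

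**Figure D4:**
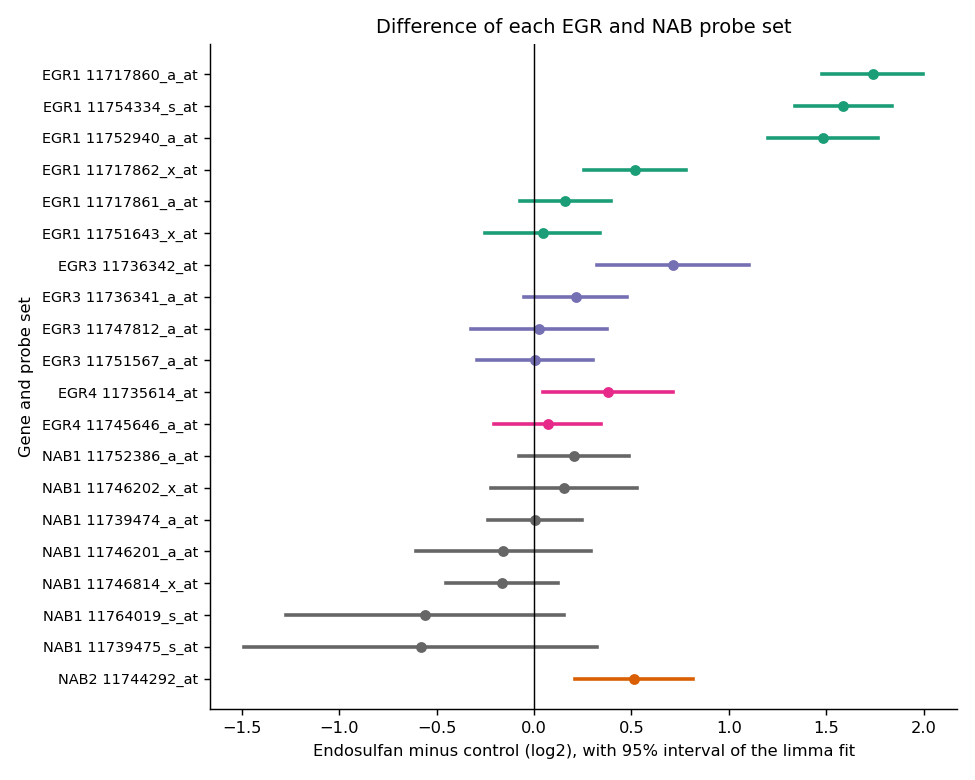
Endosulfan minus control difference (log2, horizontal axis) of each of the 20 probe sets, with the 95% interval of the limma fit over 3 arrays a group. The 3 leading EGR1 probe sets, at 1.48 to 1.74, stand apart from the other 17, which lie between -0.58 and 0.72.

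The genes whose probe sets ran most like EGR1 over the 6 arrays were found by the root mean square (RMS) difference from 11717860_a_at, its brightest probe set, after each was centred on its mean. A flat probe set would be 0.87 from it. The other leading EGR1 probe sets were at 0.14 and 0.15. The nearest of another gene was FOS, a subunit of AP-1, on 11749291_a_at at 0.26. FOS read 5.35, 4.85 and 4.68 on control and 6.72, 6.46 and 6.29 on endosulfan arrays, with the same order of exposed arrays as EGR1. Then came the HSP90 cochaperone relative CDC37L1 on 2 probe sets at 0.37 and 0.41, the quinone reductase NQO1 at 0.38, PPIL6 at 0.41, SERTAD1 at 0.42, the secreted protein METRNL at 0.42 and CTHRC1 at 0.44. EGR3's 11736342_at was at 0.57, NAB2 at 0.63 and EGR4's 11735614_at at 0.69, farther from 11717860_a_at than those probe sets were. Each of these 8 is a single probe set, and none was called, with a limma adjusted p of 0.215. FOS has 4 probe sets, CTHRC1 5, PPIL6 and CDC37L1 3 each, and NQO1 and METRNL 2 each. Their other probe sets are not given here, so the likeness is of the probe set and not of the gene. The likeness largely reads the size of the difference between the groups.

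NAB2, with a smaller difference, had many near neighbours. The nearest were ANKRD9 at an RMS difference of 0.03, TOR4A at 0.03, the growth factor gene TGFB1 at 0.04 and KLHL30 at 0.04, where a flat probe set would be at 0.29. The EGR1 probe set 11717862_x_at was at 0.08 from it.

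Genes that EGR factors are described to bind, from a list of 46 of which 40 were measured, were looked at next, with each gene by its brightest probe set. Many were described in cells other than neuroblastoma. No gene of this list passed the limma test over 18132 genes at a Benjamini-Hochberg adjusted p below 0.05 in either direction, where 0.00552% of all genes were higher and 0.0% lower. At an unadjusted p below 0.05 the list had 3 higher and 2 lower, or 7.5% and 5.0%, against 6.64% and 10.5% of all genes. The number higher was 7 without endosulfan 2, 5 without control 2 and 0 with the spike-in level in the model, where the share of all genes was 8.21%, 10.1% and 0.761%. The median difference was 0.11, against 0.05 over all genes (log2), and it was 0.02 without control 1, 0.07 without endosulfan 1 and 0.01 with the spike-in level, where that of all genes was 0.02, 0.03 and 0.02.

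The values that follow did not pass the test. TGFB1 had control and endosulfan means of 4.30 ± 0.16 and 4.81 ± 0.18 (log2 value, SD, n = 3 each, as for the genes below), and ARC, a synaptic immediate early gene, had 6.91 ± 0.29 and 7.46 ± 0.15. FGF2, a growth factor, was at 3.92 ± 0.19 and 4.82 ± 0.53, with endosulfan 2 highest at 5.42 and 1 of its 3 probe sets of the opposite sign. In the other direction were ATF3, a stress-induced repressor, at 6.55 ± 0.12 and 6.06 ± 0.18, and the tyrosine phosphatase PTPN1, at 8.61 ± 0.22 and 8.14 ± 0.02. ATF3 has 7 probe sets, 3 positive and 4 negative, and their mean difference was 0.00. In all 5 the groups did not overlap on the probe set named, and the limma adjusted p was 0.197 to 0.217.

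The induction pathway, with the MAP kinase steps and the factors that act at EGR promoters, had 24 of 30 genes measured and a median difference of -0.01 (log2). None passed the limma test at an adjusted p below 0.05. Unadjusted, 2 were higher and 5 lower at that level, or 8.33% and 20.8%, against 6.64% and 10.5% of all genes. The number higher was 0 without control 1, control 3, endosulfan 1 or endosulfan 3, where 3.04% to 4.31% of all genes were higher. It was 1 without endosulfan 2 and 5 without control 2, against 8.21% and 10.1% of all genes. With the replicate block or the spike-in level it was 0, against 3.18% and 0.761% of all genes. The number lower was 4 to 6 with any 1 array left out, against 5.88% to 13.6% of all genes. It was 2 with the spike-in level, where 0.871% of all genes were lower. SRF, the serum response factor that binds CArG boxes, had means of 7.38 ± 0.12 on control and 7.74 ± 0.21 on endosulfan arrays, and the kinase MAP2K2 had 9.0 ± 0.35 and 9.42 ± 0.03.

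On the lower side were the coactivator CREBBP, at 8.60 ± 0.35 and 7.64 ± 0.14, with all 5 probe sets negative, and the ETS partner of serum response factor ELK3, at 6.50 ± 0.18 and 5.33 ± 0.54, with 1 of its 2 probe sets positive. The kinase RPS6KA2 was at 7.98 ± 0.42 and 7.07 ± 0.23, with 1 of 4 probe sets positive. The remaining 2, CREB1 at a difference of -0.58 and RPS6KA5 at -0.28, are outside the rule for named genes and were picked after their values were seen. The limma adjusted p of these 7 genes was 0.196 to 0.280.

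The NuRD complex, through which NAB proteins repress, had all 14 subunits measured, 4 with a positive and 10 with a negative difference and a median of -0.29 against 0.05 over all genes (log2). None passed the limma test at an adjusted p below 0.05. At an unadjusted p below 0.05, MBD3 had means of 10.10 ± 0.27 on control and 10.51 ± 0.08 on endosulfan arrays and MTA1 of 10.26 ± 0.14 and 10.54 ± 0.05, 14.3% of the list against 6.64% of all genes. CHD4, the remodelling ATPase, was the 1 lower subunit at that level, 7.14% against 10.5% of all genes, with a difference of -0.58 and groups that overlapped; it was picked after its value was seen. The number higher was 0 without control 1 or endosulfan 3, and 1 without control 3, endosulfan 1 or endosulfan 2. It was 0 with the replicate block, the spike-in level or all probe sets of a gene averaged. In these settings 0.761% to 8.21% of all genes were higher. The number lower was 5 without endosulfan 2, 3 without control 2 and 2 with probe sets averaged, where 13.6%, 12.5% and 9.08% of all genes were lower. It was 0 without any other single array, with the block or with the spike-in level, where 0.871% to 7.75% of all genes were lower. The mean over the subunits was highest on control 1, at 9.15, and endosulfan 2, at 9.04, against 8.52 to 8.82 on the other 4. The leading NAB1 probe sets were highest on the same 2 arrays, and so was the mean of the GC-box factors below, at 6.70 and 6.62. Over all probe sets, the deviations of control 1 and endosulfan 2 from their group means had a correlation (r) of 0.57. That was the highest of any control array with any endosulfan array, so this order is not particular to NuRD or NAB1. The NuRD median was -0.10 without endosulfan 1, -0.11 without control 1 and -0.43 without endosulfan 2. It was -0.16 with all probe sets of a gene averaged or with array weights and -0.0029 with the spike-in level in the model.

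The 14 zinc finger factors that bind GC-rich sites overlapping those of EGR had a median difference of -0.02 (log2). With limma 0 of them passed at an adjusted p below 0.05 and 0 at an unadjusted p below 0.05, against 6.64% and 10.5% of all genes. Unadjusted, 1 was higher and 1 lower without control 2, against 10.1% and 12.5% of all genes. Without endosulfan 2, 2 were lower, against 13.6% of all genes. A further quantile normalization and a mean-variance trend gave 1 lower each, against 9.94% and 10.4% of all genes. With array weights 2 were higher and 2 lower, against 23.4% and 21.2% of all genes. WT1, which shares the EGR site, had means of 3.18 ± 0.06 on control and 3.24 ± 0.22 on endosulfan arrays, and SP1 of 7.51 ± 0.50 and 6.66 ± 0.70. Both were picked after their values were seen and their groups overlapped.

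**Figure D5:**
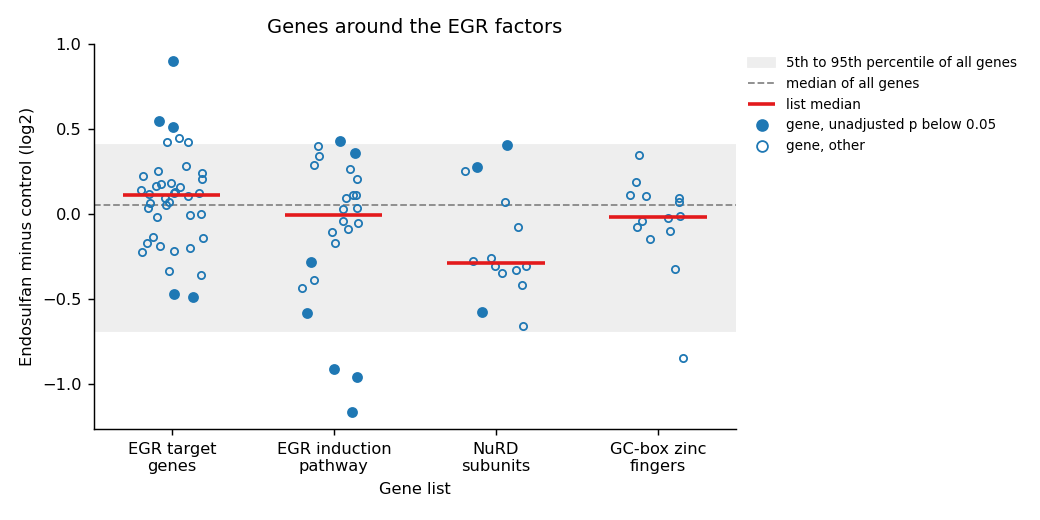
Endosulfan minus control difference (log2, vertical axis) of each measured gene in the 4 lists, with the list median as a red line, the median of all 18132 genes dashed at 0.05 and the grey band from the 5th to the 95th percentile of all genes, -0.69 to 0.40. Filled points have an unadjusted limma p below 0.05, and the NuRD median, at -0.29, is the lowest of the 4.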

How the data were processed

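RNA of 6 samples was hybridised to 1-colour Affymetrix expression arrays, 3 control and 3 endosulfan. The authors deposited 1 table of log2 values, made with Affymetrix Expression Console and RMA per the submitters' processing notes; no version or option is stated. RMA equalises the arrays' distributions, which removes a shift shared by most transcripts. Of 49395 rows, 102 array controls were set aside and 49293 were fitted with limma 3.58.1 in R 4.3.3 (lmFit, eBayes, two-sided, Benjamini-Hochberg). Platform annotation named 1 gene for 44988 probe sets, several for 1832 and none for 2473. For gene lists each of 18132 genes was read from its brightest one-gene probe set. Members, lists and tests were chosen with earlier results of these data known. Named are all members and, from each list, up to 3 genes a direction with the smallest unadjusted p below 0.05 and groups that do not overlap, and the 8 and 4 probe sets of other genes, uncharacterised loci left out, nearest to EGR1 and NAB2. The fit was tested on simulated data. Promoters come from RefSeq. A planned comparison of protein sequences was not run. Plots were made in Python 3.11.15 with matplotlib 3.10.9. Alternatives were the replicate block, a further quantile normalization, centring on medians, a filter on dim probe sets, a trend with robust moderation, array weights, the spike-ins as covariate, averaging all probe sets per gene and leaving out each array.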

Additional observations from a re-analysis of the deposited data

Results flagged for a closer look

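Measures outside the comparison of transcripts were higher on every endosulfan array than on every control array in 2 cases. Hybridisation controls, which go in once the RNA is labelled, averaged 10.05 ± 0.29 on control and 10.70 ± 0.19 on endosulfan arrays (log2, n = 3 per group, SD). The difference was 0.644, and the exact permutation p was 0.1. For the GAPDH control probe sets, 3' minus 5' signal, which reads RNA integrity, averaged 0.75 ± 0.06 and 0.84 ± 0.04 (log2, n = 3 per group, SD). That difference was 0.0926, again with an exact permutation p of 0.1. The 3 arrays with level poly-A spike-ins were not level on these measures. Control 2 had 10.38 for the hybridisation controls and 0.74 for GAPDH. Endosulfan 1 had 10.62 and 0.89, and endosulfan 2 had 10.56 and 0.82. The part of both measures in the values of the EGR and NAB probe sets was not tested.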

How the results depend on the processing

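The differences of the 3 leading EGR1 probe sets lay between 1.34 and 1.86 under the 14 alternatives taken by probe set. Those of NAB2 lay between 0.35 and 0.61 and of EGR4's 11735614_at between 0.30 and 0.50. EGR3's 11736342_at, which the filter on dim probe sets removed, was between 0.55 and 0.89 under the other 13. None of these 6 probe sets changed sign, whereas 8 of the 20 did. The calls were less steady. With the replicate number as a block, 0 probe sets, 0 members and 0 genes were higher at an adjusted p below 0.05. Spike-ins as a covariate gave 0 as well, and averaging all probe sets per gene left 0 genes higher. The labels name no pairing. Deviations of same-numbered arrays from their group means had correlations (r across probe sets) of -0.51, -0.40 and 0.05. With 3 arrays a group such correlations constrain each other, so they cannot decide whether the replicate number is a pairing. With array weights, which rested mainly on endosulfan 3 and control 3 (weights 5.43 and 2.20), 3003 probe sets and 2914 genes were higher, 4098 and 3001 lower and 7 members passed; of the lists, 8 higher and 4 lower passed among EGR targets, 3 and 6 in the induction pathway, 3 and 4 in NuRD and 1 and 1 among GC-box factors. With 1 array left out, probe sets higher ranged from 0 to 4, probe sets lower from 0 to 3 and members called from 0 to 2, and genes higher were 0 in each case. Further quantile normalization, median centring and the filter on dim probe sets kept all 3 EGR1 calls, and the trend kept 2. The comparison among the 3 arrays with level spike-ins is 1 of the 14 alternatives and was added after the data were seen. It is a plain difference of means with no fit. The number of arrays limits the precision, and no call above background could be made.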
